A study of Mus musculus with 4 samples.

Results

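The genes described are 7 acute phase genes: the serum amyloid A genes Saa1, Saa2 and Saa3, lipocalin 2 (Lcn2), haptoglobin (Hp), pentraxin 3 (Ptx3) and ceruloplasmin (Cp). They are 7 of 25746 genes that could be named in RNA sequencing of stromal cells from the prostate of adult C57BL/6 mice. The cells came from proximal ducts, next to the urethra (2 libraries, called proximal 2 and proximal 3), or from distal ducts, at the tips of the lobes (2 libraries, called distal 2 and distal 3). Flow sorting had kept Sca-1-positive cells without lineage markers, CD24 or CD49f, and no label names an allele, an agent or an exact age. The labels tie no library to an animal of its own, so p-values here measure library spread alone, which may be technical. Where a region has 2 values, that of number 2 is given before that of number 3. The genes were chosen by name with earlier results of these libraries known, including lower proximal values of Saa1 and Saa3, so their regional differences are given as a description, without a test.

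Acute phase proteins are plasma and tissue proteins whose synthesis changes in inflammation. The liver makes most of the plasma pool, under interleukin 6, interleukin 1 and glucocorticoids acting through STAT3, NF-kB and C/EBP factors. Saa1 and Saa2 encode lipoprotein-bound amyloid A of the liver, while Saa3 in mice is made largely outside it, by macrophages, fat and stromal cells. Ptx3 is a soluble pattern recognition protein of fibroblasts, endothelium and myeloid cells. Lcn2 binds bacterial iron siderophores, Hp binds free haemoglobin, and Cp is a copper enzyme that oxidises iron for export.

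The starts of 5 of these genes are shown because both proximal libraries lay below both distal libraries for each of them. The runs are the 250 bases before the RefSeq gene start (GRCm38.p6), 5′ to 3′ on the gene's strand. Each window directly precedes the start of a listed transcript of its gene. The GENCODE M21 positions given below place some starts elsewhere. The Lcn2 window lies inside its GENCODE span, and the Saa2 and Saa3 windows overlap theirs. Capitals mark matches on either strand to the C/EBP letters TTNNGNAA.
Saa1 (chr7:46742981-46743230, minus strand): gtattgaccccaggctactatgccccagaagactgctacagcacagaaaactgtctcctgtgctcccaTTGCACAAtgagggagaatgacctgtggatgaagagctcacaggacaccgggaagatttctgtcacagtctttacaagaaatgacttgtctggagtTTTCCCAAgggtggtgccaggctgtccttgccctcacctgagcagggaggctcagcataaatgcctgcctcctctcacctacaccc
Saa2 (chr7:46751583-46751832, plus strand): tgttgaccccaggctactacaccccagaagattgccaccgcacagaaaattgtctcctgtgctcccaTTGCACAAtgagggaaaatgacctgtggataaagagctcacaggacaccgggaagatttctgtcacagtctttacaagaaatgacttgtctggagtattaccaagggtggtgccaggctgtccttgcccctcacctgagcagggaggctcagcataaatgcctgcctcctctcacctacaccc
Saa3 (chr7:46715677-46715926, minus strand): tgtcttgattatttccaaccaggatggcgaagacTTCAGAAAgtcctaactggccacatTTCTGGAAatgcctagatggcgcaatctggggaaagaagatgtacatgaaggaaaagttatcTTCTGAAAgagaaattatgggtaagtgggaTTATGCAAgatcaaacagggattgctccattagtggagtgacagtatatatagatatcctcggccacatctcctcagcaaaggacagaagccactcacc
Ptx3 (chr3:66219637-66219886, plus strand): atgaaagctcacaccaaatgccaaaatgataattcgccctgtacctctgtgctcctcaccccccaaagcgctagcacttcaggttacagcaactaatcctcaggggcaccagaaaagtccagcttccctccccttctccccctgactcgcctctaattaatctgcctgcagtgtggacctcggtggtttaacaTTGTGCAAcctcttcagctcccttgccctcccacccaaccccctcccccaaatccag
Lcn2 (chr2:32387740-32387989, minus strand): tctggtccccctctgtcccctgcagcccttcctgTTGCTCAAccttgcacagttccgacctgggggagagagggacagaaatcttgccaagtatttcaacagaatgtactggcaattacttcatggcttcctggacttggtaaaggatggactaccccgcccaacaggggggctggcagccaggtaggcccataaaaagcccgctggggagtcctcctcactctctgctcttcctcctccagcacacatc

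Each of the 5 windows held at least 1 match to the C/EBP letters, which 36.8% of 32536 promoter windows of the same length hold. Saa3 had 4 matches, Saa1 had 2, and Saa2, Ptx3 and Lcn2 had 1 each. The Saa1 and Saa2 windows were identical at 238 of 249 aligned bases (95.6%), and both hold the match TTGCACAA, while the Saa1 match TTTCCCAA is not in the Saa2 window. Saa1 and Saa3 were identical at 59.4% of 224 aligned bases. The STAT letters TTCNNNGAA (7.04% of windows), the NF-kB consensus (3.92% of windows), both searched on either strand, and the TATA box letters TATAAA on the gene's strand (7.55% of windows) were not found in these 5 windows. A match describes letters only and was not tested as a binding site. The entry for Hp was missing from the promoter table. Cp, whose regions overlapped, has 2 windows that are not shown. Each of these Cp windows also held a C/EBP match (TTTCTAAA and TTTTGCAA), and 1 of them held the TATA box letters. The C/EBP match was thus not particular to the genes that were lower in proximal stroma.

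Values are FPKM (fragments relative to transcript length and mapped total), summed per gene, and testing required 1 FPKM in 2 or more of the 4 libraries. All members but Saa2 met that minimum (6 of 7). That level was reached by 11463 genes in proximal 2 and by 10154 genes in distal 3, the most and the fewest, and limma tested 11271 genes on log2(FPKM + 1). Ly6a (Sca-1), the gene of the positive sort, measured 687 FPKM in proximal 2 and 738 FPKM in proximal 3, against 1016 FPKM in distal 2 and 868 FPKM in distal 3. Cd24a (CD24) gave 8.06 and 54.6 FPKM in the proximal pair, against 9.64 and 19.1 FPKM in the distal pair, so its RNA was present in all 4 despite the sort against CD24. Itga6 (CD49f) did not exceed 1.34 FPKM. Over tested genes the libraries correlated more by number (Pearson r = 0.952 for proximal 2 with distal 2 and 0.952 for proximal 3 with distal 3) than by region (0.869 within proximal and 0.911 within distal), a description across genes that are not independent. Limma called 0 genes over all 11271 (0.00%). At an unadjusted p under 0.05 limma gave 254 genes higher (2.25%) and 102 genes lower (0.905%) in proximal stroma.

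Both proximal libraries lay below both distal libraries for 6 of the 7 genes (5 under quantile normalization), and for 8.64% of all tested genes. The opposite order, proximal above distal without overlap, held for 0 of the 7 and for 13.0% of all tested genes (1460 above and 974 below, and under quantile normalization 1336 above and 1485 below). The members were chosen with this contrast known, so nothing is read from these counts. The median log2 difference (proximal minus distal, log2(FPKM + 1)) was -0.67 over the 7 members and 0.09 over all tested genes. Within the libraries numbered 2 the members' median was -0.66, and within those numbered 3 it was -0.67. In bulk RNA, fewer cells of a type and less RNA per cell cannot be told apart.

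**Figure D1:**
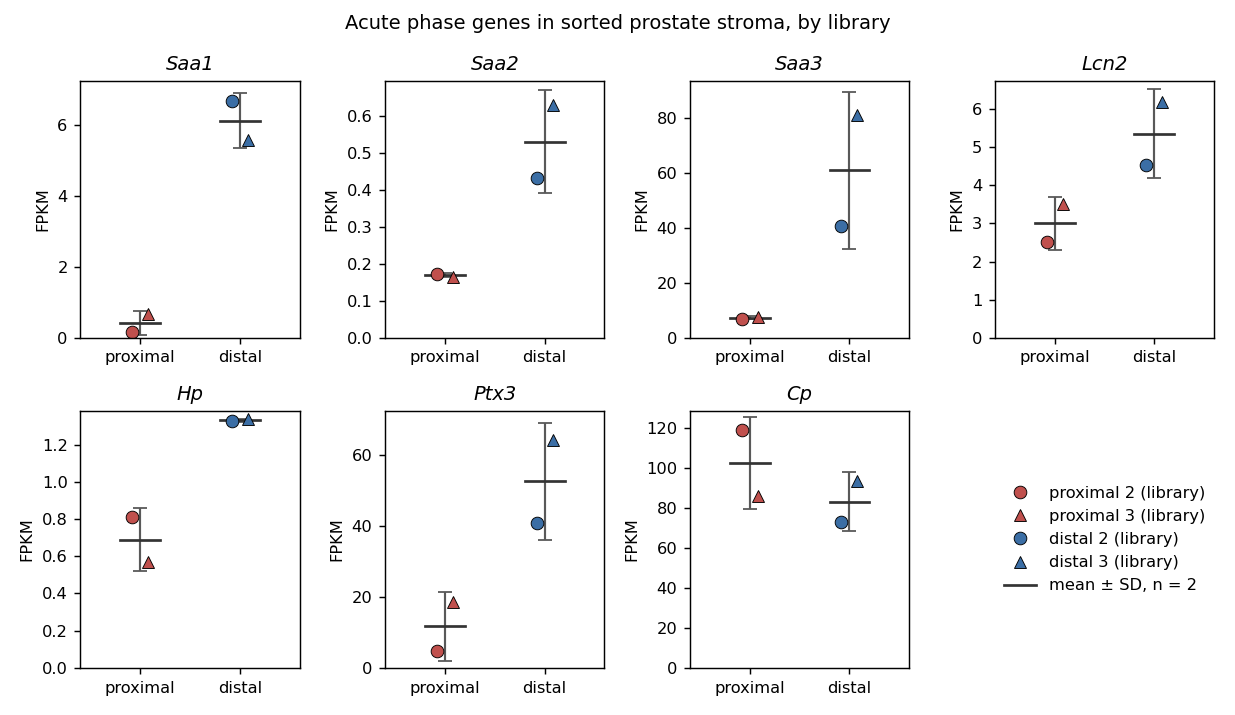
FPKM of the 7 acute phase genes, 1 panel per gene with its own axis from 0; red marks are proximal and blue marks distal libraries, circles are numbered 2 and triangles 3, and bars give the mean and SD (n = 2). For 6 genes both proximal marks sit below both distal marks, while the Cp libraries overlap, with proximal 2 highest at 119 FPKM.

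Saa3 was the most abundant amyloid gene in every library. It is on chromosome 7 at 46711998 to 46715700 (minus strand, mm10, positions from GENCODE M21). Saa3 measured 6.98 FPKM in proximal 2 and 7.61 FPKM in proximal 3, against 40.9 FPKM in distal 2 and 81.1 FPKM in distal 3. The proximal libraries were alike, while distal 3 was 1.99 times distal 2. On average Saa3 was 8.36-fold lower in proximal stroma, by 5.85-fold within number 2 and 10.7-fold within number 3. The deposited bounds of the estimates did not meet either, with a highest upper bound of 9.41 FPKM in proximal and a lowest lower bound of 36.5 FPKM in distal libraries. Saa3 exceeded 38.9% and 50.6% of tested genes in proximal 2 and proximal 3, and 85.5% and 93.1% in distal 2 and distal 3. Its log2 difference was -2.82, and 2 of the 11271 tested genes had a lower one. Of 2 listed Saa3 transcripts the longer, of 531 bases, held all of the signal, and the shorter, of 476 bases, was listed at 0 in all 4 libraries.

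Saa1, on chromosome 7 at 46740497 to 46742980 (minus strand), was low throughout and under 1 FPKM in proximal stroma. It measured 0.174 FPKM in proximal 2 and 0.664 FPKM in proximal 3, against 6.68 FPKM in distal 2 and 5.58 FPKM in distal 3. The regions did not overlap, and Saa1 averaged 14.6-fold lower in proximal stroma, by 38.4-fold within number 2 and 8.40-fold within number 3. Its log2 difference was -2.35. Saa1 passed the minimum of 1 FPKM only through its distal libraries, and its proximal values rested on little signal. The 2 listed Saa1 transcripts, of 607 and 610 bases over the same span, had coverage of 0.614 and 0.115 reads per base in proximal 2 and of 3.35 and 0 in proximal 3. In distal 2 that coverage was 18.6 and 19.6, and in distal 3 it was 6.93 and 25.6.

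Saa2, on chromosome 7 at 46751790 to 46754313 (plus strand), was the lowest member in every library. It had 0.173 and 0.165 FPKM in the proximal pair, against 0.433 and 0.629 FPKM in the distal pair, with coverage of at most 3.80 reads per base. The deposited bounds overlapped, since the lowest distal bound was 0. Annotated Saa1 and Saa2 transcripts are identical at 572 of 606 aligned bases (94.4%) and share 13.2% of the Saa1 stretches of 50 bases, so fragments could be divided between them in error. Saa1 and Saa2 together gave 0.347 and 0.829 FPKM in proximal and 7.11 and 6.20 FPKM in distal libraries, an average 11.3-fold lower in proximal stroma. Saa3 shares 73.9% of 522 aligned bases with Saa1 and 1.78% of its own stretches of 50 bases. Saa4, a neighbour between Saa3 and Saa1 that encodes a constitutive amyloid A (chosen after its values were seen), was listed at 0 in all 4 libraries.

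Ptx3, on chromosome 3 at 66219910 to 66225805 (plus strand), had library values that overlapped those of Saa3 in each region. It measured 4.85 FPKM in proximal 2 and 18.6 FPKM in proximal 3, against 41.0 FPKM in distal 2 and 64.2 FPKM in distal 3. The regions did not overlap, nor did the deposited bounds, whose highest proximal value was 19.8 FPKM and whose lowest distal value was 39.2 FPKM. Ptx3 averaged 4.48-fold lower in proximal stroma, by 8.44-fold within number 2 and 3.45-fold within number 3, with a log2 difference of -2.29, which was -1.42 without proximal replicate 2 and -3.16 without proximal replicate 3. Its proximal libraries differed by 3.83 times, more than its distal libraries (1.57 times). The gene lies inside a longer gene on the opposite strand, Veph1 (chosen after its values were seen), whose 3 listed transcripts did not exceed 0.0865 FPKM in any library.

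Lcn2 and Hp, carriers of siderophores and of haemoglobin, were low and differed less between regions. Lcn2, on chromosome 2 at 32384633 to 32388252 (minus strand), gave 2.50 and 3.50 FPKM in the proximal pair, against 4.53 and 6.18 FPKM in the distal pair. Its average was 1.78-fold lower in proximal stroma, by 1.81-fold within number 2 and 1.77-fold within number 3. The libraries did not overlap between regions, but the deposited bounds did, with a highest proximal bound of 4.37 FPKM and a lowest distal bound of 3.57 FPKM. Hp, on chromosome 8 at 109575128 to 109579172 (minus strand), was read at 0.810 and 0.570 FPKM in the proximal pair, against 1.33 and 1.34 FPKM in the distal pair, 1.93-fold lower on average in proximal stroma. Its deposited bounds also overlapped (1.13 FPKM in proximal, 0.935 FPKM in distal), and its coverage was between 2.68 and 8.74 reads per base. Like Saa1, Hp met the minimum of 1 FPKM in distal libraries only.

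Cp was the most abundant member and the only one whose regions overlapped. On chromosome 3 at 19957054 to 20009145 (plus strand), it measured 119 FPKM in proximal 2 and 86.1 FPKM in proximal 3, against 72.8 FPKM in distal 2 and 93.5 FPKM in distal 3. Proximal 2 was highest and distal 2 lowest, with both libraries numbered 3 between them. Cp averaged 102 ± 23.1 FPKM in proximal, against 83.2 ± 14.6 FPKM in distal libraries (SD, n = 2 each), a difference within the spread of the libraries. The log2 difference was 0.70 within number 2 and -0.12 within number 3. Cp exceeded between 92.3% and 96.0% of tested genes in every library.

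Of 6 listed Cp transcripts 3 held all of the signal and 3 were listed at 0 in every library. Splicing of Cp is known to give a secreted and a membrane-anchored enzyme, but which listed transcript encodes which was not determined here. The 3889-base transcript took 40.4% and 34.3% of the Cp signal in proximal 2 and proximal 3, and 40.7% and 39.2% in distal 2 and distal 3. The 4712-base transcript took 43.9% and 44.5% in proximal and 42.3% and 37.7% in distal libraries, and the 4561-base transcript took 15.8% and 21.2% in proximal and 16.9% and 23.2% in distal libraries. The share of the 4712-base transcript was higher in both proximal than in both distal libraries, and the other shares overlapped. These differences in share were not tested. The last exons of Cp overlap Hps3, a gene of lysosome-related organelles on the opposite strand (chosen after its values were seen), and the 7 listed Hps3 transcripts were at 0 in all 4 libraries. The library kit does not mark strand, so fragments of the overlap cannot be assigned by strand.

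**Figure D2:**
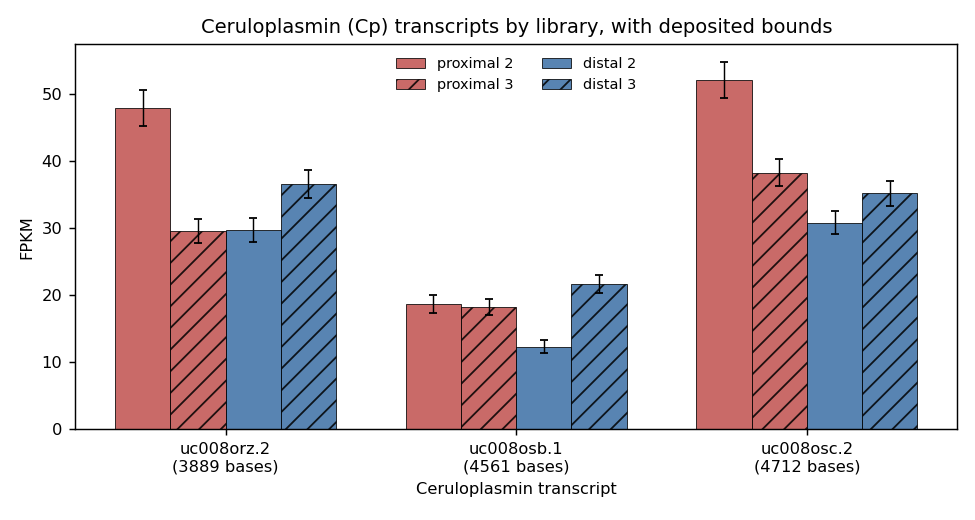
FPKM of the 3 ceruloplasmin transcripts above 0 in proximal (red) and distal (blue) libraries, plain bars numbered 2 and hatched bars 3, with the deposited lower and upper bounds as error bars. Proximal 2 is highest for the 3889-base and 4712-base transcripts, at 47.9 and 52.1 FPKM, and distal 3 for the 4561-base transcript, at 21.6 FPKM.

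FPKM is scaled by transcript length, so the genes are ordered here by mean level. Other differences between transcripts that could affect their levels were not assessed, so the order is a description. In proximal stroma the order of mean levels was Cp, Ptx3, Saa3, Lcn2, Hp, Saa1 and Saa2, with overlapping libraries for Ptx3 and Saa3 and for Hp and Saa1. In distal stroma the order was Cp, Saa3, Ptx3, Saa1, Lcn2, Hp and Saa2, where the libraries of Cp and Saa3, of Saa3 and Ptx3 and of Saa1 and Lcn2 overlapped. The distal mean of Saa3 was 61.0 ± 28.5 FPKM (SD, n = 2), against a distal mean of 83.2 ± 14.6 FPKM for Cp. Number 3 lay above number 2 for 4 of the 7 genes in proximal and for 6 of the 7 in distal libraries. The share of all tested genes in that order was not computed, so nothing is read from these counts.

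**Figure D3:**
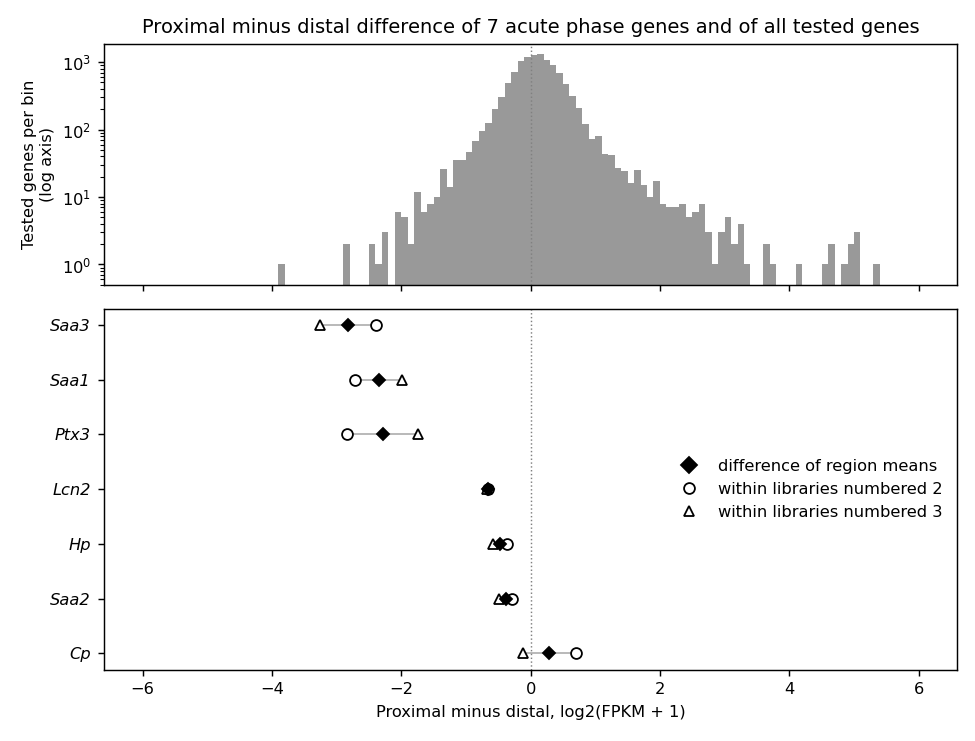
Top, histogram of proximal minus distal differences in log2(FPKM + 1) for 11271 tested genes (log count axis); bottom, the 7 acute phase genes on the same axis, with the difference of region means (diamond) and the differences within the libraries numbered 2 (circle) and 3 (triangle). Saa3, Saa1 and Ptx3 lie between -2.82 and -2.29, Lcn2, Hp and Saa2 between -0.67 and -0.39, and the 2 within-number values of Cp lie on either side of 0.

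The genes with profiles most like that of Saa3 over the 4 libraries were found among 7816 tested genes whose higher region averaged 5 FPKM or more. Likeness was the root mean square distance between centred log2(FPKM + 1) profiles, with a median of 1.54 over those genes. The 5 nearest genes were Tslp, a cytokine of barrier tissues (distance 0.34), Dmkn, which encodes dermokine (0.43), Mmp3, a matrix-degrading stromelysin (0.43), Ren1, which encodes renin (0.44), and 9530003J23Rik (0.48). Tslp had 2.60 and 2.97 FPKM in the proximal pair, against 13.8 and 20.2 FPKM in the distal pair, and Ren1 0.775 and 2.62 FPKM in the proximal pair, against 17.0 and 18.7 FPKM in the distal pair. Saa1 ranked 7 (distance 0.50) and Ptx3 ranked 19 (0.65), while Lcn2 ranked 214 (1.10) and Cp ranked 4372 (1.58). Hp and Saa2 lay under the limit of 5 FPKM and were not ranked, and Saa1 passed it only through its distal libraries. The members were chosen with the regional contrast known, so nothing is read from their ranks. With 4 libraries these distances describe the profiles only.

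Other genes of the pathway were read from 5 lists chosen by role, with 102 genes that are not members, of which 70 were tested. Limma called 0 of the 70, with 5 at an unadjusted p under 0.05 and an adjusted p of 0.99991 for each. Both proximal libraries lay below both distal libraries for 18 of the 70 (8.64% of all tested genes) and above them for 8 (13.0% of all tested genes). Their median log2 difference was -0.20. Of the 29 listed acute phase proteins that are not members, 8 were listed at 0 in all libraries, among them C-reactive protein (Crp), serum amyloid P (Apcs), Orm2 and albumin (Alb), all chosen after their values were seen.

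Of 10 tested acute phase proteins that are not members, 3 had non-overlapping higher and 1 non-overlapping lower proximal values (13.0% and 8.64% of all tested genes). The median log2 difference of the 10 was 0.00193. The sign of that median turned under median ratio scaling (-0.08), with no filter on low values (-0.00247) and without proximal replicate 3 (-0.04), and without proximal replicate 2 the median was 0.36. C3, the central complement protein, gave 66.1 and 82.1 FPKM in the proximal pair, against 134 and 176 FPKM in the distal pair, a log2 difference of -1.05 ± 0.33 (SE). Serpina3m, a serine protease inhibitor, had 1.71 and 1.83 FPKM in the proximal pair, against 0.202 and 0.142 FPKM in the distal pair, and belongs to a family of similar copies that could share fragments. Neither passed the test, and the differences went both ways.

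Among 16 tested inducing cytokines and receptors 5 were lower and 2 higher in proximal stroma without overlap (8.64% and 13.0% of all tested genes). Under median ratio scaling 2 were lower and 2 higher. The median log2 difference of the 16 was -0.31. Osmr, the oncostatin M receptor, reached 14.5 and 45.2 FPKM in the proximal pair, against 50.9 and 128 FPKM in the distal pair, a log2 difference of -1.61 ± 0.70 (SE). Lif, a cytokine of the interleukin 6 family, had 17.4 and 46.7 FPKM in the proximal pair, against 56.8 and 133 FPKM in the distal pair, a log2 difference of -1.57 ± 0.64 (SE). Both genes were higher in number 3 than in number 2 in each region. Il1r2, a decoy receptor of interleukin 1, gave 2.42 and 17.5 FPKM in the proximal pair, against 0.884 and 1.28 FPKM in the distal pair. Il6 itself (chosen after its values were seen) overlapped between regions, at 220 and 442 FPKM in the proximal pair, against 345 and 419 FPKM in the distal pair. Without proximal replicate 2 the median of this list was 0.09, so its sign rests on that library.

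Among 20 tested transcription factors and feedback genes 9 were lower and 1 higher in proximal stroma without overlap (8.64% and 13.0% of all tested genes). The median log2 difference of the 20 was -0.54. Nfkb2, a subunit of NF-kB, was read at 34.6 and 80.0 FPKM in the proximal pair, against 87.0 and 154 FPKM in the distal pair, a log2 difference of -1.12 ± 0.53 (SE). Bcl3, a nuclear partner of NF-kB subunits, reached 22.3 and 39.1 FPKM in the proximal pair, against 62.6 and 48.6 FPKM in the distal pair. Zc3h12a, an RNase that degrades cytokine mRNA, overlapped, at 6.77 and 18.9 FPKM in the proximal pair, against 17.6 and 32.4 FPKM in the distal pair. Nfkbia, the NF-kB inhibitor and feedback target (chosen after its values were seen), had 538 and 503 FPKM in the proximal pair, against 971 and 872 FPKM in the distal pair, a log2 difference of -0.82 ± 0.31 (SE). Cebpb, a C/EBP factor (chosen after its values were seen), separated by number and not by region, at 1041 FPKM in proximal 2 and 31.7 FPKM in proximal 3, against 1323 FPKM in distal 2 and 42.0 FPKM in distal 3. None passed the test.

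Among receptors, binding partners and iron genes the differences went both ways. Of 9 tested receptors and binding partners 1 was higher and 1 lower in proximal stroma without overlap (13.0% and 8.64% of all tested genes). The median log2 difference of the 9 was 0.02. That median turned to -0.17 under quantile normalization and -0.07 under median ratio scaling. It lay between -0.26 and 0.31 with 1 library left out. Slc22a17, a receptor of Lcn2, gave 35.2 and 19.8 FPKM in the proximal pair, against 20.0 and 12.3 FPKM in the distal pair, which overlapped. P2rx7, an ATP-gated channel linked to amyloid A signalling, was read at 5.72 and 6.49 FPKM in the proximal pair, against 2.72 and 3.72 FPKM in the distal pair, and Itih2, a heavy chain that links to hyaluronan, at 2.75 and 1.36 FPKM in the proximal pair, against 3.52 and 2.72 FPKM in the distal pair. The haemoglobin-haptoglobin receptor Cd163 (chosen after its values were seen) was listed at 0 in all libraries. Of 15 tested iron genes 2 were lower and 1 higher in proximal stroma without overlap (8.64% and 13.0% of all tested genes). Nothing is read from the counts of these 2 lists. The median of the iron genes was -0.09, which was 0.00488 without proximal replicate 2 and 0.02 without distal replicate 3. Slc39a14, a zinc and iron importer, reached 16.1 and 21.7 FPKM in the proximal pair, against 34.8 and 50.6 FPKM in the distal pair, a log2 difference of -1.12 ± 0.38 (SE). Steap4, a metalloreductase, had 16.7 and 39.1 FPKM in the proximal pair, against 41.3 and 77.5 FPKM in the distal pair, and Slc11a2, an iron transporter, had 10.6 and 28.9 FPKM in the proximal pair, against 17.1 and 48.1 FPKM in the distal pair.

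**Figure D4:**
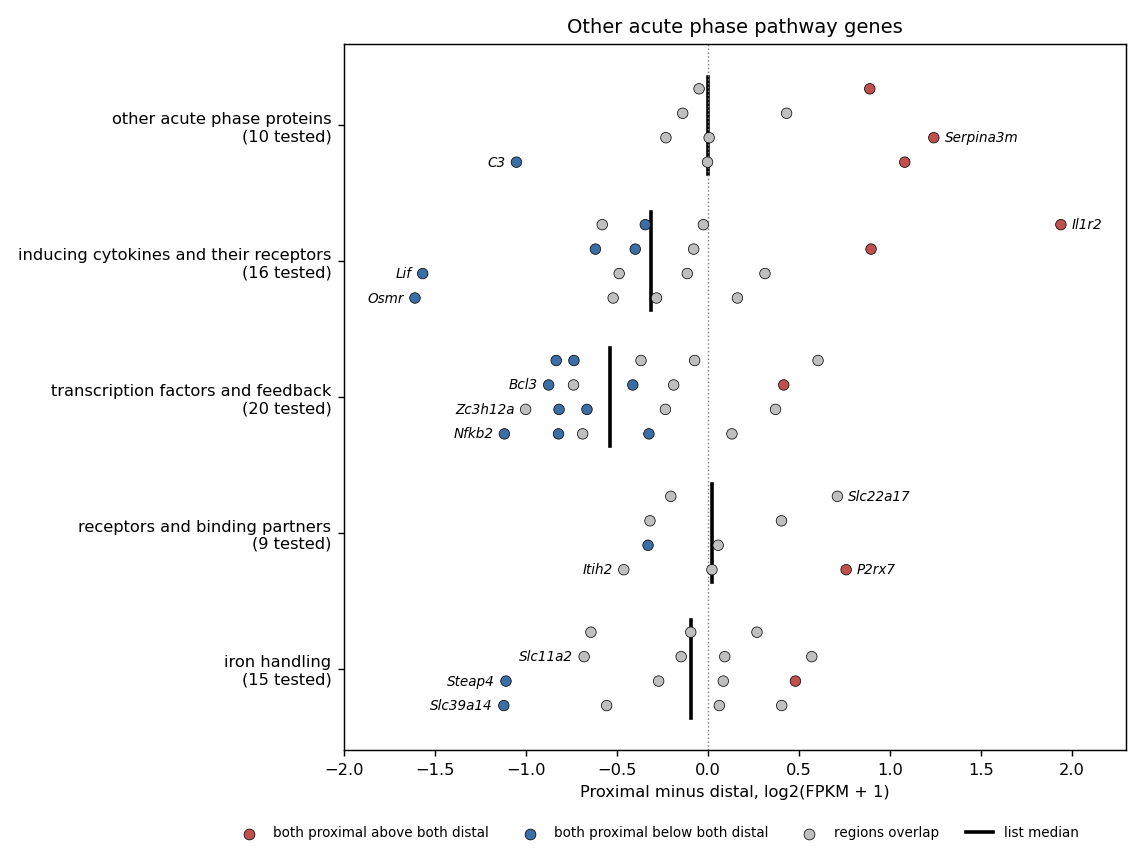
Proximal minus distal differences in log2(FPKM + 1) of 70 tested pathway genes in 5 lists; red points have both proximal above both distal libraries, blue points both below, grey points overlap, black bars are list medians, and labels mark the genes named in the text by size of difference. In the transcription factor list 9 of 20 points are blue and 1 is red (8.64% and 13.0% of all tested genes), and 0 of the 70 genes passed the test.

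Markers of other cells that make acute phase proteins were read beside these values. Neutrophil markers summed to 0.651 and 5.81 FPKM in the proximal pair, against 1.88 and 12.6 FPKM in the distal pair. Of these S100a8 gave 0.359 and 5.60 FPKM in the proximal pair, against 1.63 and 12.5 FPKM in the distal pair, while 4 defining markers (S100a9, Camp, Csf3r and Retnlg, all chosen after their values were seen) had 0 FPKM in each library. Mpo did not exceed 0.25 FPKM, and Ly6g matched no named gene. Macrophage markers (10 genes) summed to between 2.78 and 3.98 FPKM, led by Cd68 and Lyz2. Hepatocyte markers did not exceed 2.10 FPKM in sum, with 4 of 8 listed at 0, among them Alb (chosen after its values were seen), and were led by Apoa1 and Cyp2e1. Adipocyte markers, led by Cfd and Plin4, did not exceed 0.883 FPKM in sum. Epithelial markers (12 genes) summed to 80.3 and 517 FPKM in the proximal pair, against 40.4 and 100 FPKM in the distal pair. Higher proximal values without overlap were found for 4 of 11 tested (13.0% of all tested genes). Over all libraries Krt19 and Krt18 were the most abundant epithelial markers. Psca (chosen after its values were seen) gave 15.4 and 65.7 FPKM in the proximal pair, against 0 and 0.0441 FPKM in the distal pair. Markers of prostate secretory cells, led by Pbsn and Tgm4, summed to 121 and 360 FPKM in the proximal pair, against 193 and 264 FPKM in the distal pair. Of 5 tested secretory markers 2 were higher and 1 lower in proximal stroma without overlap (13.0% and 8.64% of all tested genes). Mesothelial markers, led by Krt19 and Wt1, summed to 49.5 and 176 FPKM in the proximal pair, against 42.4 and 39.8 FPKM in the distal pair, with Lrrn4 and Gpm6a (chosen after their values were seen) listed at 0. Krt19, which is also in the epithelial list, gave 22.0 and 156 FPKM in the proximal pair, against 7.93 and 15.2 FPKM in the distal pair, and Wt1 went the other way, with 20.9 and 16.7 FPKM in the proximal pair, against 32.3 and 22.0 FPKM in the distal pair. Endothelial markers (8 genes, led by Kdr and Tek) lay between 8.41 and 9.68 FPKM, smooth muscle markers (6 genes, led by Des and Tagln) between 134 and 312 FPKM and fibroblast markers (9 genes, led by Dcn and Ly6a) between 4507 and 5819 FPKM in sum. Genes of dissociation and handling stress, led by Hspa1a and Hspa1b, summed to 20304 and 12722 FPKM in the proximal pair, against 14429 and 6882 FPKM in the distal pair. Of these stress genes 5 of 10 were higher in proximal stroma without overlap (13.0% of all tested genes). The part of S100a8-expressing cells, of epithelial RNA and of handling in the values of the 7 genes was not tested.

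**Figure D5:**
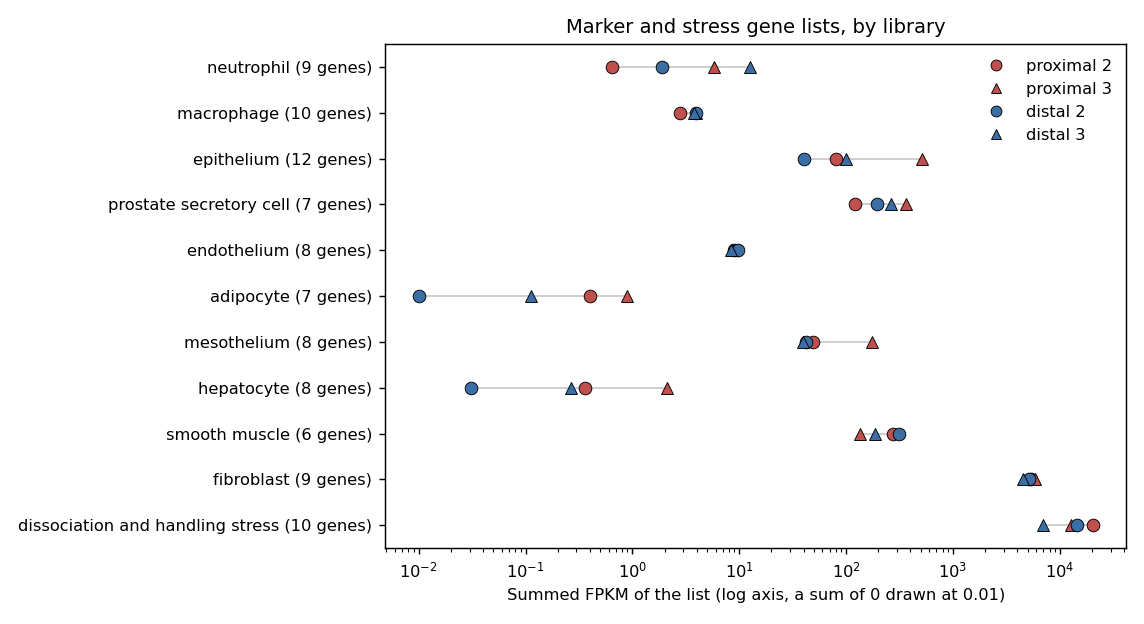
Summed FPKM of 11 gene lists in each library on a log axis, red for proximal and blue for distal, circles numbered 2 and triangles 3; a sum of 0 is drawn at 0.01. Neutrophil markers are highest in distal 3 (12.6 FPKM) and epithelial markers in proximal 3 (517 FPKM), while fibroblast markers lie between 4507 and 5819 FPKM in all 4 libraries.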

How the data were processed

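For 4 samples, SMART-Seq v4 cDNA (random and oligo-dT priming) was made into TruSeq DNA libraries sequenced on an Illumina HiSeq instrument, per the labels' protocols. The tools were Cufflinks 0.0.6, TopHat2 0.6 and bcl2fastq 1.8.3 and the genome mm10, per the submitters' processing notes, which give no roles here. The authors deposited FPKM per transcript with lower and upper bounds and a coverage signal, per the file headers. FPKM holds no counts, so a count model was not used. Total depth is unknown. Per FPKM, the deposited coverage signal had medians of 5.22 (proximal 2), 5.38 (proximal 3), 5.68 (distal 2) and 6.34 (distal 3). The bounds cover estimation error within a library only.

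The 63241 listed transcripts carry no symbols. Names came from position in GENCODE M21 (same assembly): span overlap times length similarity of at least 0.8, else both ends within 100 bases of exons of 1 gene, else span similarity of at least 0.5. This named 87.94% of transcripts, holding 96.35% of the FPKM. Of genes at the minimum, 7 with a failed or capped estimate were left out. limma 3.58.1 (R 4.3.3) fitted log2(FPKM + 1) with region alone and a trend of variance with level. Its two-sided p-values were adjusted by Benjamini and Hochberg over 11271 genes (threshold 0.05). For 2 against 2 libraries the smallest p of an exact permutation test is 0.333. The fit was also run on simulated data with independent noise of the same spread for every gene. That simulation left out the likeness of libraries by number, so it does not show how the fit performs here. The pseudocount makes differences of low genes too small. Promoters and alignments were handled with Python 3.11.15, pandas 2.3.3 and Biopython 1.88, plots with matplotlib 3.10.9.

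The members and gene lists were chosen with earlier results of these data known. The text names all members, the 3 tested genes with the largest difference per pathway list (1 of them is not reported here), the 5 genes nearest to Saa3, the 2 most abundant genes of marker lists and the sort genes; any other gene is marked as picked once its values had been seen. Alternatives were a pseudocount of 0.1, no filter, quantile normalization, median ratio scaling, no trend, a replicate block, stricter naming and leaving out each library.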

Additional observations from a re-analysis of the deposited data

How the results depend on the processing

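Of 11 other settings, quantile normalization and median ratio scaling could have turned the direction of Saa1, Saa3, Lcn2, Hp and Ptx3. Both left these genes lower in proximal stroma. Quantile normalization was applied to tested genes only, so it could not change Saa2. Median ratio scaling, which could have turned Saa2, left it lower (log2 difference -0.41). For genes without overlap the other settings cannot turn the direction. Under quantile normalization 5 of the 7 members, against 6 as reported, had regions without overlap. The median log2 difference of the 7 members was -1.21 with a pseudocount of 0.1 (-0.67 with 1), and -0.86 to -0.48 with 1 library left out. With that pseudocount the differences of Saa1, Saa2 and Hp were -3.76, -1.21 and -0.88. Quantile normalization moved the median of all tested genes to -0.03 from 0.09. The count of called genes, 0 as reported, was 0 to 40 with 1 library left out (40 without distal replicate 2, 26 without distal replicate 3); the cause was not tested. With 1 library in a region, its spread is assumed to be that of the other region. For the pathway genes the count was 0 to 1, the 1 being Cebpb without distal replicate 3, a gene whose libraries differ by number, so nothing is read from that call.

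The libraries share numbers 2 and 3, but the labels tie no number to an animal or a day. With the replicate block 465 of 11271 genes were called (4.13%), among them 9 of 70 pathway genes, which include C3, Osmr, Lif, Nfkb2, Zc3h12a, Slc39a14, Steap4 and Serpina3m. As a check of the pairing, deviations from the region means had a Pearson's r of 0.815 between the libraries numbered 2, across genes, which are not independent. With 2 pairs this cannot show that the numbers pair the samples. Depth limits the proximal values of Saa1 and all values of Saa2 and Hp.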
